A study of Mus musculus with 9 samples.

Results

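The cytosolic ribosomal protein genes were followed across 9 libraries of total RNA from adult mouse ovary, collected 40 h after pregnant mare serum gonadotropin (PMSG), a hormone that makes follicles grow. They were chosen by gene symbol: every gene named Rpl or Rps with a number, the stalk genes Rplp0 to Rplp2, and Rpsa, without the Rps6 kinases and without genes whose names mark them as pseudogenes. This gave 89 of the 54838 genes in the table. Of these, 77 are the core protein-coding genes, 46 of the large subunit with its stalk and 31 of the small subunit. Another 6 are protein-coding paralogs (Rpl3l, Rpl7l1, Rpl10l, Rpl22l1, Rpl39l and Rps27l). The annotation calls the other 6 pseudogenes (Rps3a2, Rps3a3, Rps4l, Rps12l1, Rpl6l and Rpl32l). Fau, Rack1 and Rpl36al, which also encode proteins of the ribosome, have other kinds of symbol or an added letter and are given apart. The groups were wild type (WT, 3 libraries), the double knockout labelled DKO LXR (DKO, 3 libraries) and the same double knockout with a transgene, labelled DKO LXR TG-AMH-LXRb (DKO_TG, 3 libraries). LXR stands for the liver X receptors, nuclear receptors for oxysterols. The transgene is named for Amh, a hormone gene of granulosa cells, and DKO_TG carries the knockout alleles of DKO as well. Whether each library is a different mouse is not stated in the labels, so the p-values reflect only how these libraries vary, and part of that may be technical.

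A ribosome has a large and a small subunit, each built in the nucleolus from ribosomal RNA and many proteins, most of them present as a single molecule. The proteins are needed in equal numbers, and their mRNAs are among the most abundant of a growing cell. Nearly all begin with a run of pyrimidines led by C, the 5-prime terminal oligopyrimidine (TOP) motif, through which mTORC1 and LARP1 control their translation and storage. Mammalian genomes also hold very many intronless copies of these genes, made from their mRNAs and mostly annotated as pseudogenes, and many ribosomal protein introns encode small nucleolar RNAs (snoRNAs) that guide the modification of ribosomal RNA.

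Values are RPKM, reads per kilobase of exon, and differences are on the scale of log2(RPKM + 0.5). The libraries held from 40.1 to 59.4 M reads (M, mega). WT replicate 1 lay highest and DKO replicate 1 mostly lowest in the ribosomal protein genes, and counts are given with and without them. Levels of the targeted receptor genes were lower in both knockout groups. Nr1h3 ranged from 4.12 to 5.47 RPKM in WT, from 0.590 to 1.11 in DKO and from 0.538 to 0.824 in DKO_TG. Nr1h2, the gene of the receptor named in the transgene, ranged from 15.2 to 22.5 RPKM in WT, from 5.79 to 7.79 in DKO and from 5.14 to 5.96 in DKO_TG, so its level did not show the transgene that the label names. All 10 granulosa markers were above 1 RPKM in the median library, and their sum was 1929 to 2724 RPKM in WT, against 1250 to 2613 in DKO and 1819 to 2241 in DKO_TG. Macrophage markers summed to 186 to 234 RPKM in WT, against 262 to 488 in DKO and 170 to 218 in DKO_TG. Of these 10, 8 rose in DKO against WT, called as below, beside 30.8% of all genes. Other lists moved as well. Of 9 tested oocyte markers, 5 rose in DKO and 6 in DKO_TG, beside 29.1% of all genes in DKO_TG. Of 8 endothelial markers, 5 and 4 fell and 1 rose in each. Of 8 smooth muscle and stroma markers, 3 and 4 fell, beside 25.9% and 22.3% of all genes. Theca markers summed to 7802 to 11307 RPKM in WT, 5686 to 7087 in DKO and 7755 to 8512 in DKO_TG. Of these 8, 2 rose (Insl3 and Ptch1) and 2 fell (Star and Cyp11a1) in DKO, beside 30.8% and 25.9% of all genes. In DKO_TG against WT 0 were called. Insl3 reached 0.5 RPKM only in its DKO libraries, through which it passed the filter given below. In such bulk samples, fewer cells of a type and less RNA per cell cannot be told apart.

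On the deposited scale, ribosomal protein mRNA was lower in both knockout groups than in WT, and no member was called between those groups. The counts depended on the scaling between libraries, as given below. Of the 86 genes that passed the filter on low values (0.5 RPKM in 3 libraries), 60 fell and 0 rose in DKO against WT, with a median difference of -0.72. The call was an adjusted p under 0.05 in limma, adjusted over all 18889 genes tested. Among all of those, 25.9% fell and 30.8% rose, and their median difference was 0.02. In DKO_TG against WT, 58 fell and 0 rose, with a median of -0.74, beside 22.3% of all genes that fell and 29.1% that rose (51.4% called in all). Between DKO_TG and DKO, 0 of 86 were called in limma in either direction, where 1.73% of all genes fell and 0.498% rose (2.23% called in all), and 2 members had an unadjusted p under 0.05. Both comparisons with WT use the same 3 WT libraries. In them 53 members fell in both, 7 only in DKO (Rpl17, Rpl23a, Rpl35, Rpl36, Rpl38, Rps2 and Rps28), 5 only in DKO_TG (Rpl12, Rps10, Rps18, Rps4l and Rps7), and 21 were called in neither.

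The filter itself turned on 1 member alone. Of the 86, 85 were at or above 0.5 RPKM in all 9 libraries, and the other was Rpl39l, a paralog known from the male germ line, which reached that level only in its 3 DKO_TG libraries. Since it passed through the group where it is high, its place above WT or DKO is no support for a difference. The genes that did not pass were Rpl3l, the paralog of heart and skeletal muscle, at 0.205 RPKM or less in every library, Rpl10l, a testis retrogene, at 0.0942 or less, and the pseudogene Rps12l1, listed at 0.

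The core genes had a median of 241 RPKM over the 9 libraries, from 11.7 (Rps10) to 1718 (Rplp1). The highest were Rplp1, Rps3a1 at 1229, Rps15 at 1024, Rps4x at 803 and Rps14 at 724. The lowest core genes were Rps10, Rpl13a at 27.7, Rps2 at 53.8 and Rpl29 at 63.8. Over all 86 tested genes, the paralogs Rpl39l at 0.441, Rpl7l1 at 28.2 and Rpl22l1 at 32.7 and the pseudogene Rps4l at 7.45 were low as well, and the pseudogene Rps3a2 was high at 1147. RPKM divides by the summed length of all annotated exons, so a gene with many annotated isoforms, or with many copies that share its reads, can have a low value.

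**Figure D1:**
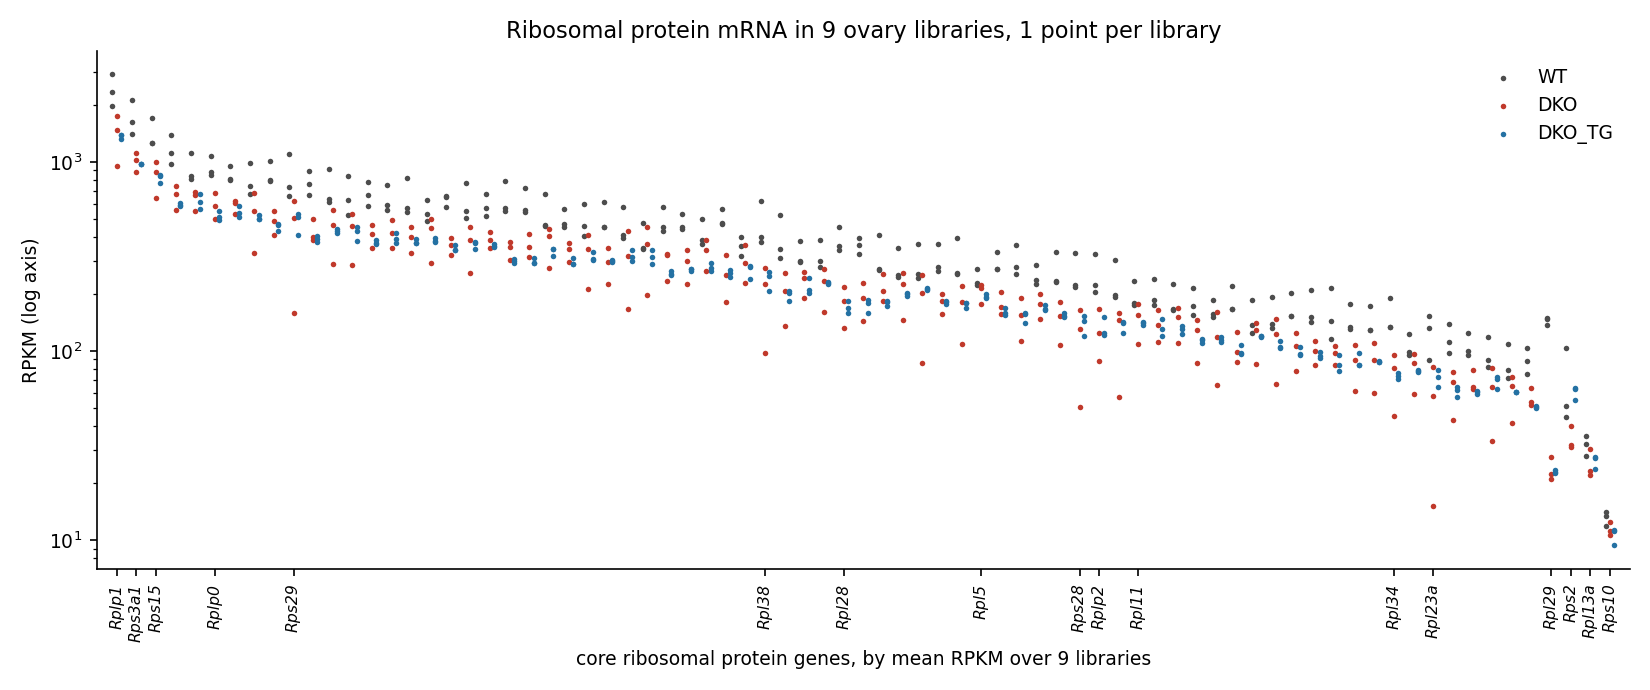
RPKM (log axis) of the 77 core ribosomal protein genes in each of the 9 libraries, 1 point per library, ordered by mean RPKM and coloured by group, with some of the genes named in the text marked. The 3 DKO_TG libraries lie close together, while 1 WT library is the highest of all 9 in 77 of 77 genes and 1 DKO library the lowest in 63.

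The spread within WT came mainly from 1 library, while in DKO the libraries differed in both directions. WT replicate 1 was the highest of all 9 libraries in 77 of 77 core genes, and its median difference from the mean of the other WT libraries was 0.43 over the 86 genes, against 0.03 over all genes tested. DKO replicate 1 was the lowest of 9 in 63 core genes, with a median of -0.53 against the other DKO libraries and -0.00 over all genes tested. DKO replicates 2 and 3 had medians of 0.42 and 0.11 against the other libraries of their group. The 3 DKO_TG libraries differed from each other by medians of -0.01 to 0.01. The summed RPKM of the members was 45092, 33250 and 33691 in WT. It was 17617, 27295 and 23654 in DKO, and 21805, 22220 and 21975 in DKO_TG. As a share of all RPKM in a library, the members made up 5.22% ± 0.230 (SD, n = 3) in WT, next to 4.68% ± 0.503 in DKO and 4.49% ± 0.0318 in DKO_TG. The summed RPKM of all genes was lower in the knockout groups too, 429668 to 544371 against 651712 to 821872 in WT.

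The count of genes that fell depended on these libraries in size but not in direction. Without DKO replicate 1, 49 members fell and 0 rose in DKO against WT, with a median of -0.54, where 22.4% of all genes fell and 27.5% rose. Without WT replicate 1, 44 fell and 0 rose, with a median of -0.57, beside 20.6% and 28.2% of all genes. With both left out, a fit added after seeing the data, 49 fell and 0 rose in DKO, with a median of -0.38. In DKO_TG, 73 fell and 0 rose in that fit, with a median of -0.57. Of all genes, 20.2% fell and 26.4% rose there in DKO, and 21.4% fell and 27.9% rose in DKO_TG. The members' libraries did not overlap, with every DKO library below every WT library, for 63 of 86 genes, beside 28.6% of all genes tested. For DKO_TG against WT this held for 83 of 86, beside 30.2% of all genes. The exceptions were Rps2 and Rpl22l1, whose libraries overlapped, and Rpl39l, which passed the filter through DKO_TG and lay higher there, as 35.6% of all genes did.

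**Figure D2:**
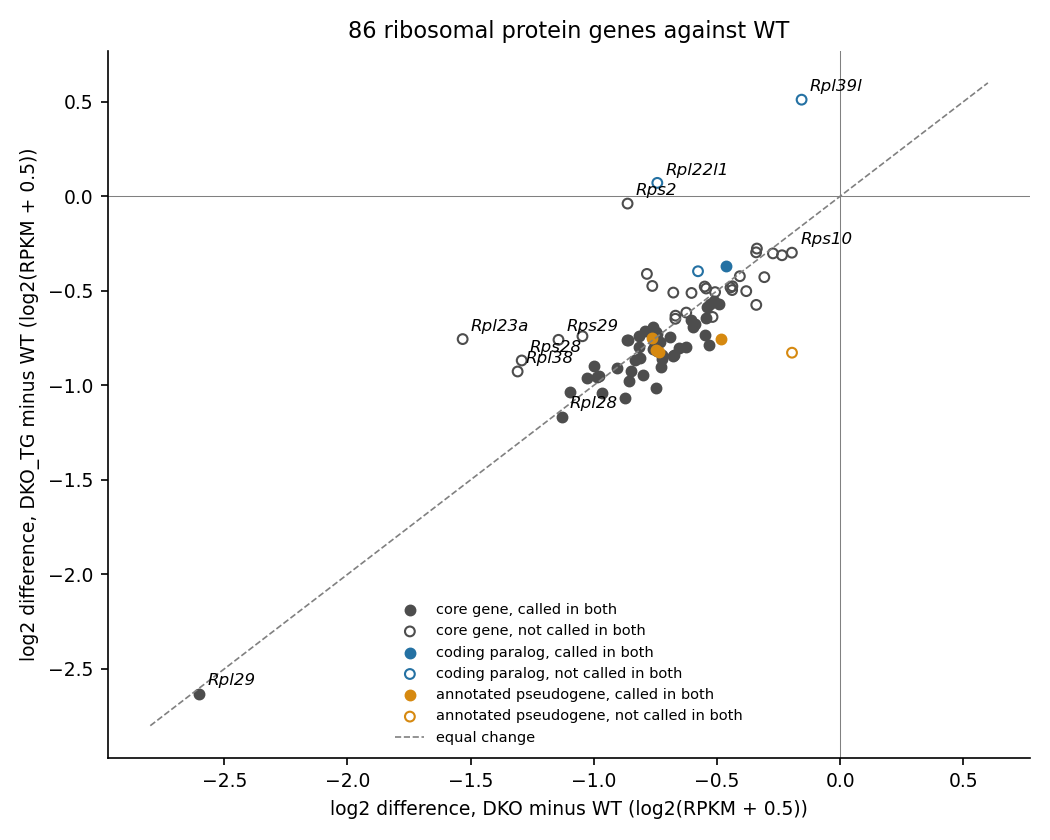
Log2 difference of each of the 86 tested genes in DKO_TG against WT (y axis) and in DKO against WT (x axis), with filled symbols for genes called in both. Most genes lie below 0 on both axes near the line of equal change on the deposited scale, Rpl29 lies alone at -2.60 and -2.63, and Rps2, Rpl22l1 and Rpl39l lie above the line. Both axes use the same WT libraries.

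Other highly expressed genes were lower as well. Among protein-coding genes that are no members and have a mean of at least 100 RPKM, 69.7% of 287 fell in DKO against WT, with a median of -0.68. Of the 71 members at that level, 74.6% fell, with a median of -0.73. In DKO_TG against WT, 55.1% of those 287 genes fell with a median of -0.59, and 71.8% of the 71 members fell with a median of -0.74. Genes of lower level went the other way: protein-coding genes between 1 and 10 RPKM had medians of 0.18 in both comparisons. Between 10 and 100 RPKM, the 13 members had medians of -0.65 and -0.47, and other protein-coding genes -0.23 and -0.18. The members' count in DKO against WT was thus near that of other genes of the same level, and the part of level in it was not tested.

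**Figure D3:**
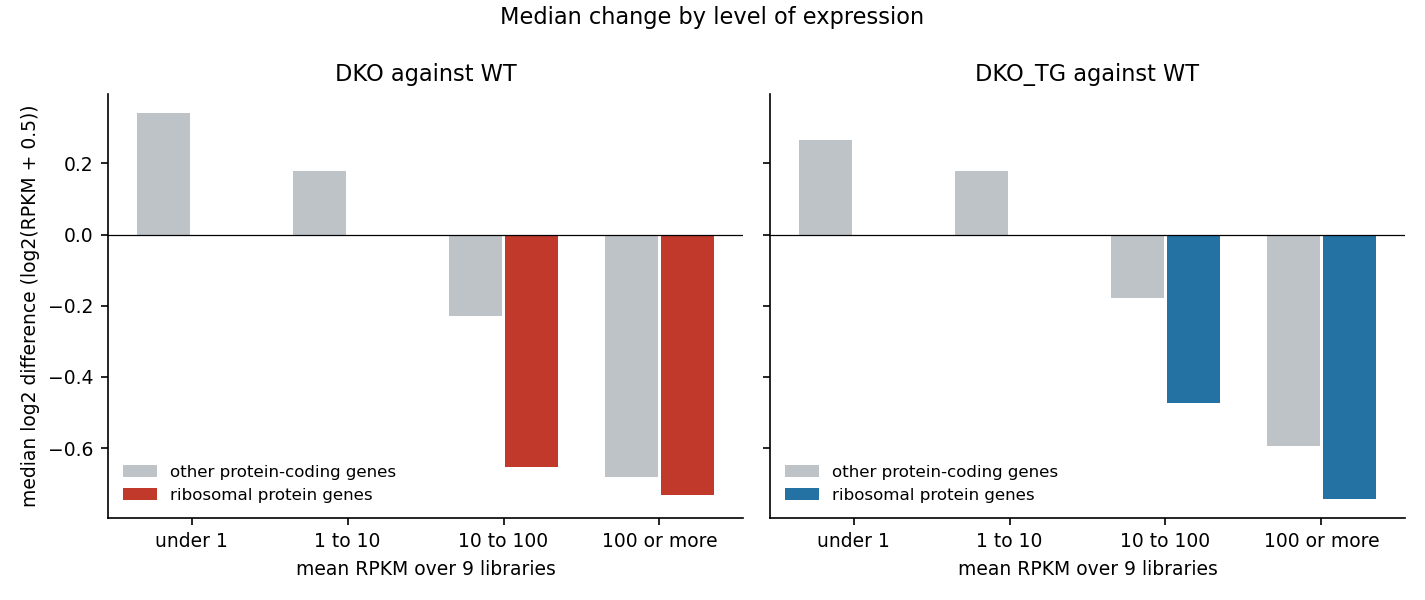
Median log2 difference (y axis) of ribosomal protein genes (coloured bars, 13 genes at 10 to 100 RPKM and 71 at 100 or more) and of other protein-coding genes (grey bars) by mean RPKM over the 9 libraries, for DKO and DKO_TG against WT. The grey bars turn from above 0 at low levels to -0.68 and -0.59 at 100 RPKM or more, beside -0.73 and -0.74 for the members.

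The counts also depended on the scaling between libraries. The deposited values carry a rescaling that raises WT: the library size behind them was 0.793 to 0.920 of the reads in WT and 1.03 to 1.11 in the others. With each library rescaled to the same sum (TPM), 19 members fell and 2 rose in DKO against WT, and 28 fell and 2 rose in DKO_TG, while the median of all genes moved to 0.54 and 0.52. Of all genes tested on that scale, 5.13% fell and 53.3% rose in DKO, and 4.74% fell and 51.3% rose in DKO_TG. After quantile normalization, which gives every library the same distribution of values, 6 fell and 6 rose in DKO, and 18 fell and 2 rose in DKO_TG. Of all genes, 25% fell and 22% rose in DKO on that scale, and 23.8% fell and 20% rose in DKO_TG. Values below are on the deposited scale, and a difference relative to other genes needs the shift of those genes beside it.

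The stalk, made of Rplp0 and pairs of Rplp1 and Rplp2, recruits the elongation factors to the ribosome. All 3 of its genes fell in both comparisons with WT, beside 25.9% and 22.3% of all genes. Rplp1 measured 2903, 2327 and 1973 RPKM in WT, then 952, 1747 and 1470 in DKO, and lastly 1384, 1383 and 1327 in DKO_TG. Every knockout library thus lay below every WT library, by -0.82 ± 0.26 (SE) in DKO with an adjusted p of 0.024 in limma. Rplp0 fell by 0.68 in DKO and by 0.85 in DKO_TG. Rplp2 fell by 0.999 and by 0.90. The calls of Rplp1 ended without WT replicate 1 (adjusted p = 0.070 in DKO and 0.083 in DKO_TG in limma) or WT replicate 2 (0.054 and 0.062), and in DKO_TG also without any 1 of its own libraries (0.073 to 0.084). That of Rplp2 in DKO_TG ended without WT replicate 1 (0.053) and DKO_TG replicates 1 (0.052) or 3 (0.055). Between DKO_TG and DKO the 3 differences were -0.17, 0.02 and 0.10, for Rplp0, Rplp1 and Rplp2.

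Rpl5 and Rpl11, which form the 5S particle with 5S ribosomal RNA and bind Mdm2 when ribosome assembly fails, were among the least changed. Rpl5 measured 270, 223 and 229 RPKM in WT, then 176, 222 and 215 in DKO, and lastly 189, 192 and 199 in DKO_TG. Its difference of -0.24 in DKO (adjusted p = 0.146 in limma) and -0.31 in DKO_TG (adjusted p = 0.072) passed no test, although each library of both groups lay below the lowest of WT. Rpl11 differed by -0.44 and -0.48, again not called.

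Some ribosomal proteins are made as fusions. Rps27a, which is made as a fusion of ubiquitin and a small-subunit protein, differed by -0.31 in DKO and -0.43 in DKO_TG and was not called. Fau, whose product is a ubiquitin-like protein fused to Rps30, fell from 623 ± 115 RPKM in WT to 391 ± 78.1 in DKO and 353 ± 12.3 in DKO_TG (SD, 3 libraries per group).

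In the large subunit, apart from the stalk, 33 of 43 core genes fell in DKO and 29 of 43 in DKO_TG, with medians of -0.72 and -0.74. In the small subunit 19 of 31 and 20 of 31 fell, with medians of -0.73 and -0.69. Beside these counts, 25.9% and 22.3% of all genes tested fell. Among other protein-coding genes at 100 RPKM or more, 69.7% and 55.1% fell. The ratio of the summed RPKM of the large to the small subunit was 1.22 ± 0.0381 in WT, next to 1.19 ± 0.00861 in DKO and 1.195 ± 0.0186 in DKO_TG (SD, 3 libraries per group), so the groups overlapped. Among the best separated genes was Rpl28, at 453, 360 and 342 RPKM in WT, then 133, 218 and 183 in DKO, and lastly 184, 168 and 158 in DKO_TG. It fell by 1.13 in DKO and by 1.16 in DKO_TG. Rpl14, also of the large subunit, fell by 0.97 and by 1.04. Rps6, the substrate of the S6 kinases, fell by 0.72 and by 0.84. Rpl10, one of the last proteins to join the large subunit, fell by 0.81 and by 0.85, and Rpl3, a protein near the peptidyl transferase centre, fell by 0.55 and by 0.73.

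Other small and large subunit genes differed less. Rps27, Rps24 and Rpl13a were called in neither comparison. Rps27 differed by -0.27 and -0.30, Rps24 by -0.34 and -0.30 and Rpl13a, also known as a subunit of the GAIT complex that represses inflammatory mRNAs, by -0.34 and -0.28. Rps10, which lies at the mRNA entry and is ubiquitinated by the collision sensor Zfp598, differed by -0.20 in DKO and fell by 0.30 in DKO_TG. These are values of the genes alone. Rps10 held 5.21% of the reads shared with its matched pseudogene copies, described below, and Rpl13a held 17.98%. Summed with their copies, Rps10 fell by 0.81 and by 0.79, and Rpl13a by 0.69 and by 0.71, all called. Rps7 differed by -0.34 in DKO and fell by 0.57 in DKO_TG. Leaving out WT replicate 1 or DKO_TG replicate 1 or 2 ended the call of Rps7 (adjusted p = 0.064 to 0.075 in limma). The call of Rps10 ended without WT replicate 1 or 2, DKO replicate 1 or any 1 DKO_TG library (0.053 to 0.160). To see how the genes moved against each other, each library was centred on the median log2 value of the members. In DKO, 5 of 86 then rose (Rpl5, Rps27, Rps27a, Rps7 and Rps24) and 11 fell (Rpl29, Rpl23a, Rpl38, Rps28, Rpl28, Rpl34, Rps16, Rplp2, Rpl37a, Rps26 and Rpl14), beside 53.4% and 2.54% of all genes on that scale. In DKO_TG, 8 rose (Rpl22l1, Rps2, Rpl13a, Rps24, Rps27, Rpl5, Rps27l and Rpl39l, the last through the filter as above) and 5 fell, among them Rpl29, Rpl28 and Rpl14, beside 60.3% and 1.2%. Between DKO_TG and DKO, Rps2 alone rose on that scale and 0 fell, beside 0.349% and 0.81%.

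Some of the largest differences in DKO rested in part on its replicate 1, in which genes of short coding sequence were lowest. Rps29, with 168 coding bases, measured 1095, 738 and 663 RPKM in WT, then 159, 617 and 505 in DKO, and lastly 510, 527 and 411 in DKO_TG. Only 1 of its DKO libraries stood far apart, and its difference of -1.14 was not called (adjusted p = 0.058 in limma). Rpl38, which in mice is known for tissue-specific skeletal defects when mutated, measured 618, 399 and 376 RPKM in WT, then 97.4, 276 and 226 in DKO, and lastly 260, 250 and 207 in DKO_TG. It fell by 1.31 in DKO, and by 0.86 without DKO replicate 1, which keeps its call (adjusted p = 0.016 in limma). Rps28, of the small subunit, fell by 1.29, and by 0.78 without that library. Rpl23a, which lines the exit of the peptide tunnel, measured 153, 132 and 89.9 RPKM in WT, then 15.1, 82.5 and 58.0 in DKO, and lastly 73.0, 79.1 and 64.6 in DKO_TG. It fell by 1.53 in DKO, and by 0.81 without its low first library. Rpl23a held 2.09% of the reads of its family, and summed with its 76 copies it fell by 0.99 in DKO and by 1.03 in DKO_TG. Leaving out WT replicate 1 ended the call of all 3 of these genes in DKO, at -1.08 for Rpl38, -1.10 for Rps28 and -1.37 for Rpl23a (adjusted p = 0.053, 0.071 and 0.102 in limma), and leaving out WT replicate 2 ended that of Rpl23a (0.082).

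Over the 77 core genes, the difference of DKO replicate 1 from the other DKO libraries followed the longest annotated coding length, with a Spearman rho of 0.81 across genes, which share the library and are not independent. Its median was -0.82 for the 26 genes of at most 406 coding bases and -0.31 for the 25 genes of at least 582. For WT replicate 1 the rho was -0.51, with medians of 0.51 and 0.39. Whether RNA quality, fragment size or the amount of ribosomal protein mRNA differed in these libraries was not tested. When differences tied to exon length were removed from each library, a step added after seeing the data, 71 members fell and 0 rose in DKO, where 34.3% of all genes fell and 24.7% rose. This step used the summed length of all annotated exons, not the coding length. Whether it removed the trend with coding length was not tested.

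**Figure D4:**
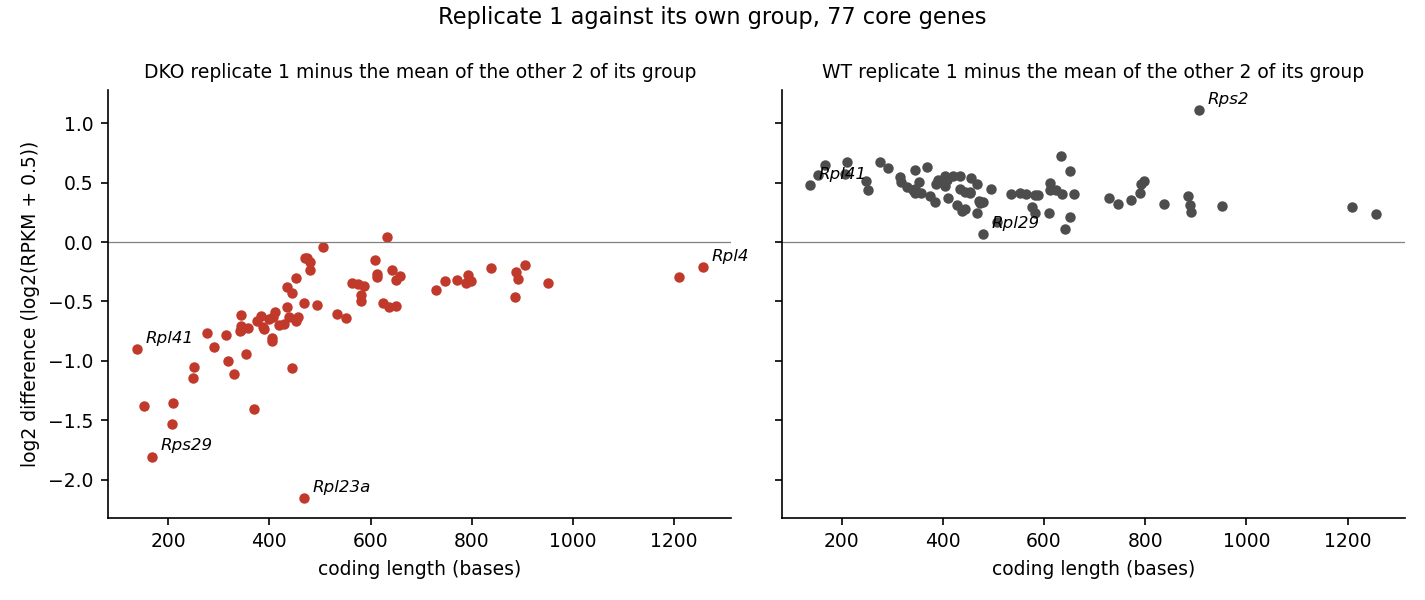
Log2 difference of replicate 1 from the mean of the other libraries of its group (y axis) for the 77 core genes, against the longest annotated coding length in bases (x axis), for DKO and WT. In DKO replicate 1 the shorter genes lie lower, with Rpl23a the lowest at -2.16, and in WT replicate 1 all genes lie above 0, with Rps2 the highest at 1.11.

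Rps2, whose product lines the mRNA entry of the small subunit, had the largest difference between the knockout groups. It measured 104, 51.2 and 44.8 RPKM in WT, then 30.9, 39.8 and 31.6 in DKO, and lastly 55.2, 64.0 and 62.5 in DKO_TG. All DKO_TG libraries lay above all DKO libraries, and WT replicate 1 lay above the rest. Rps2 fell by 0.86 in DKO against WT, a call that ended without DKO replicate 1 (adjusted p = 0.070 in limma) or 3 (0.068), and differed by -0.04 in DKO_TG. The difference between DKO_TG and DKO was 0.82, from 0.19 to 1.45 at 95%, and was not called (adjusted p = 0.194 in limma). It was called without WT replicate 1 (adjusted p = 0.028), without both first replicates (adjusted p = 0.034) and when centred on the members (adjusted p = 0.037), 3 of 24 alternatives in which the adjusted p ran from 0.028 to 0.830. When the reads of Rps2 were summed with those of its 99 copies, the difference between DKO_TG and DKO was -0.12. Rpl23a and Rpl22l1 also differed by 0.78 and 0.81 between these groups, but by 0.06 and 0.21 without DKO replicate 1. Summed with their copies, they differed by -0.04 and 0.48.

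For many members the data bound the difference between DKO_TG and DKO only loosely. The 95% interval lay within 0.5 of 0 for 37 of 86 genes, and it reached a median of 0.43 to either side of the difference, and 1.196 for Rpl23a, where it was widest. Genes whose libraries did not overlap included Rpl10a, Rpl21 and Rpl24, lower in DKO_TG, among 5 genes beside 12.1% of all genes tested, and Rps2, higher, as Rpl39l was through the filter, beside 12.1%.

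The coding paralogs divided as well. Rpl7l1, a paralog of Rpl7, fell from 33.98 ± 4.41 RPKM in WT to 24.5 ± 2.62 in DKO and 26.1 ± 0.922 in DKO_TG (SD, 3 libraries per group), while Rpl7 fell by 0.60 and by 0.69. The call of Rpl7l1 in DKO_TG ended without any 1 library of WT replicates 1 and 3 or of DKO_TG (adjusted p = 0.059 to 0.085 in limma). Rpl22l1, which can take the place of Rpl22, measured 45.4, 33.4 and 29.4 RPKM in WT, then 8.86, 37.8 and 27.2 in DKO, and lastly 42.3, 36.3 and 33.7 in DKO_TG, with DKO replicate 1 far below the rest and no call. Rpl22 differed by -0.41 and -0.42, also without a call. Rps27l, a paralog of Rps27 known as a p53 target, differed by -0.58 and -0.40, not called, beside -0.27 and -0.30 for Rps27. Rpl39l stayed under 1 RPKM in all libraries and was not called. Rpl39 differed by -0.78 in DKO and -0.41 in DKO_TG, also without a call. For Rpl39, DKO replicate 1 differed from the mean of the other DKO libraries by -1.38. Its DKO difference ran from -1.09 to -0.32 with 1 library left out at a time. Rpl36a differed by -0.51 in both and was not called, and its retrogene Rpl36al fell from 18.4 ± 3.25 RPKM to 11.7 ± 1.38 and 12.3 ± 1.10.

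Of the 6 members annotated as pseudogenes, 5 were tested. Rps3a2 reached a mean of 1147 RPKM, 0.933 of the level of Rps3a1, and fell by 0.75 and by 0.81 as Rps3a1 fell by 0.76 and by 0.80. Rps3a3, Rpl6l and Rpl32l fell in both comparisons, and Rps4l fell in DKO_TG by 0.83. The call of Rps4l ended when WT replicate 1 or 2, DKO replicate 3 or any 1 DKO_TG library was left out (adjusted p = 0.052 to 0.144 in limma), and that of Rpl32l in DKO without WT replicate 1 or DKO replicates 1 or 3 (0.060 to 0.075). Whether these reads come from the pseudogene or its parent cannot be told apart, and the handling of reads with several matches is not given in the sources used here.

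Rpl29 stood apart. It encodes a small basic protein of the large subunit whose loss in mice gives smaller, viable animals, and lies on chromosome 9 from 106429454 to 106431568 on the plus strand of mm10. Its level was 149, 148 and 137 RPKM in WT, then 20.996, 27.4 and 22.3 in DKO, and lastly 23.3, 22.7 and 22.8 in DKO_TG. Every knockout library lay far below every WT library, and replicates of a group differed little, including the first ones. Rpl29 fell by 2.60 ± 0.11 (SE) in DKO and by 2.63 ± 0.11 in DKO_TG, with adjusted p of 5.8e-07 and 5.5e-07 in limma, more than any other member. It was called lower in both comparisons with WT under all 24 alternatives, at -2.71 to -0.995 in DKO and -2.67 to -1.05 in DKO_TG. Between DKO_TG and DKO it differed by -0.03, from -0.27 to 0.21 at 95%.

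The smallest of those differences was found when Rpl29 was summed with its copies. Its coding transcripts matched 123 annotated pseudogenes at 80% identity or more over at least 50% of their length, and Rpl29 itself held 4.77% of the reads of that family. Divided by the exon length of Rpl29, the family summed to 2385, 1868 and 1826 RPKM in WT, then 869, 1171 and 1007 in DKO, and lastly 971, 955 and 979 in DKO_TG. That sum fell by 0.995 and by 1.05. Of the 63 copies tested, 55 fell and 7 rose in DKO against WT, and 47 fell and 5 rose in DKO_TG. Over all genes, 25.9% fell and 30.8% rose in DKO, and 22.3% fell and 29.1% rose in DKO_TG. The copies went in both directions. Gm15526 (chromosome 6, 54177480 to 54177683, minus strand) fell from 39.8 ± 7.29 RPKM in WT to 3.48 ± 1.90 in DKO and 4.89 ± 0.999 in DKO_TG (SD, 3 libraries per group). Gm8210 (chromosome 1, 43189156 to 43189638, plus strand) rose from 94.0 ± 18.1 RPKM to 162 ± 20.3 and 155 ± 3.71. Gm14036 (chromosome 2, 134803949 to 134804428, plus strand) rose from 90.8 ± 15.8 RPKM to 147 ± 12.8 and 134 ± 3.98. Copies nearest to Rpl29 went both ways: of the 5 tested copies at 99% identity or more, 3 rose and 2 fell in DKO. Whether direction followed identity over all 63 tested copies was not tested. Gm13841, at the same identity as Gm8210, fell from 585 ± 102 RPKM to 405 ± 58.5 and 382 ± 6.77. Coding bases 109 to 168 of Rpl29 are shown to let some of the copies be compared. Capitals mark, in a copy, the bases that differ from Rpl29 and, in Rpl29, the positions at which any of the copies shown differs. Each sequence is from the GENCODE M21 transcripts on mm10, 5-prime to 3-prime.
Rpl29: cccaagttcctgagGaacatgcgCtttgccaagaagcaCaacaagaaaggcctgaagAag
Gm8210: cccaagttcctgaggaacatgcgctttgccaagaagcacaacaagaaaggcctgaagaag
Gm14036: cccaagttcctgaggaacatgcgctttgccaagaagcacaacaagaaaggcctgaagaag
Gm15526: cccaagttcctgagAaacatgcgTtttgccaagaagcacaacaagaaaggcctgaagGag
Gm10913: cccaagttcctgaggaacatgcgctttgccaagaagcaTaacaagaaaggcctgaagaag
In this stretch, chosen as the 60-base window with the most differing positions, both copies shown that rose have 0 differences from Rpl29, while Gm15526 has 3 and Gm10913, which fell from 35.2 to 6.15 RPKM in DKO, has 1. The copies shown were chosen after their values were seen. Gm13841 and Gm10709 (99.2% identity), which fell in DKO, are not among them, so the stretch does not set copies that rose against copies that fell. Over the whole match, identity was 99.4% for Gm8210 and for Gm14036, 98.5% for Gm15526 and 98.0% for Gm10913.

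Rpl34 and its copies moved apart. Rpl34, a large-subunit gene (chromosome 3, 130726831 to 130730398, minus strand) measured 191, 134 and 134 RPKM in WT, then 45.4, 94.9 and 81.1 in DKO, and lastly 73.4, 76.2 and 71.0 in DKO_TG, and fell by 1.09 and by 1.03. Of its 19 matched pseudogenes 10 were tested, and 7 rose and 0 fell in each comparison with WT. Among all genes, 30.8% rose and 25.9% fell in DKO, and 29.1% rose and 22.3% fell in DKO_TG. Rpl34-ps2 (chromosome 13, 116153781 to 116154134, plus strand) measured 84.4, 65.3 and 55.4 RPKM in WT, then 306, 539 and 444 in DKO, and lastly 415, 425 and 406 in DKO_TG, a rise of 2.63 and 2.62. Rpl34-ps1 rose from 442 ± 97.3 RPKM to 848 ± 251 and 816 ± 21.5, and Gm10154 from 433 ± 88.1 to 890 ± 264 and 859 ± 30.3 (SD, 3 libraries per group). Summed with its copies, Rpl34 differed by 0.49 and 0.50 and was not called (adjusted p = 0.110 and 0.114 in limma), the opposite sign to the gene alone. Coding bases 178 to 237, marked as above, show how near these copies are.
Rpl34: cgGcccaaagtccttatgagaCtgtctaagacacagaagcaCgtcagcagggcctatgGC
Rpl34-ps1: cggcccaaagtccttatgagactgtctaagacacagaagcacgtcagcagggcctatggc
Gm10154: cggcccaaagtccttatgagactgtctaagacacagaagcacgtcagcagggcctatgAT
Rpl34-ps2: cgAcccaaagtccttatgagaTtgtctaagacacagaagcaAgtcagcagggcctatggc
Here Rpl34-ps1 has 0 differences, Gm10154 has 2 and Rpl34-ps2 has 3, with identities over the whole match of 99.4%, 98.9% and 97.2%.

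A few copies were low in WT and higher in both knockout groups. Gm13777 and Gm14094 passed the filter through the knockout libraries and are given as a description. Gm13777, a copy of Rplp1 on chromosome 2 (91030778 to 91031122, minus strand), measured 0.253, 0.583 and 0.120 RPKM in WT, then 63.1, 62.1 and 54.2 in DKO, and lastly 41.8, 42.7 and 46.4 in DKO_TG. Rplp1-ps1 on chromosome X (70653206 to 70653550, minus strand) rose from 3.49 ± 0.453 RPKM to 50.2 ± 6.55 and 38.2 ± 4.85. Gm14094, a copy of Rpl15 on chromosome 2 (133199611 to 133200220, plus strand), measured 0.319 ± 0.0125 RPKM in WT, against 44.6 ± 4.62 and 38.8 ± 4.37 (SD, 3 libraries per group). Their parents fell: Rplp1 as above and Rpl15 by 0.74 and by 0.73. Coding bases 4 to 63 of Rplp1 and 187 to 246 of Rpl15 are shown with their copies, with capitals as before.
Rplp1: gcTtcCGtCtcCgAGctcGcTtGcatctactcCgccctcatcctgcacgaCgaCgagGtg
Gm13777: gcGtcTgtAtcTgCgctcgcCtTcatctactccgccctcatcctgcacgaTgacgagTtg
Rplp1-ps1: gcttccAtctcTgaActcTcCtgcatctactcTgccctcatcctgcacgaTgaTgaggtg
Rpl15: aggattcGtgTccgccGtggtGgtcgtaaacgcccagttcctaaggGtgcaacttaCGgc
Gm14094: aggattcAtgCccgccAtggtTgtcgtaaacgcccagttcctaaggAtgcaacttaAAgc
Gm13777 has 9 differences in its window, Rplp1-ps1 has 8 and Gm14094 has 7, with identities over the whole match of 92.5%, 91.9% and 94.6%.

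**Figure D5:**
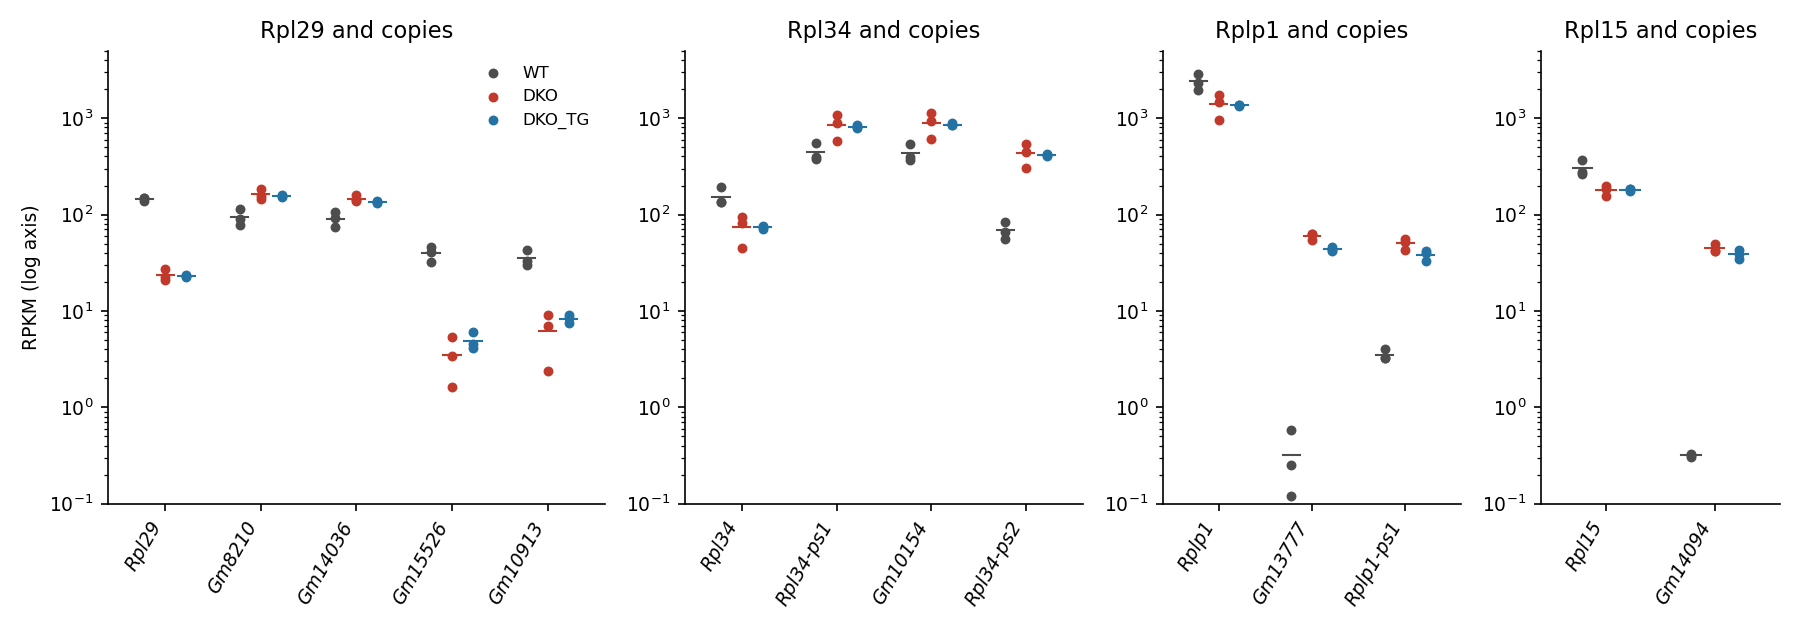
RPKM (log axis) in each library of Rpl29, Rpl34, Rplp1 and Rpl15 and of pseudogenes matched to them, with 1 point per library and a line at the mean of each group. The 4 genes are lower in DKO and DKO_TG than in WT, while Gm8210, Gm14036, the 3 copies of Rpl34, both copies of Rplp1 and Gm14094 are higher.

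Copies of the ribosomal protein genes as a whole went the way of the genes, but whether their reads come from the copy or its parent cannot be told apart. Of 1875 matched pseudogenes outside the rule, 1004 were tested, and 680 fell and 39 rose in DKO against WT, with a median of -0.66. In DKO_TG, 687 fell and 38 rose with a median of -0.71, and 0 were called in limma between DKO_TG and DKO. Of all genes tested, 25.9% fell and 30.8% rose in DKO, and 22.3% fell and 29.1% rose in DKO_TG. Of the 39 that rose in DKO, 7 were copies of Rpl29, 7 of Rpl34, 5 of Rps7 and 4 of Rps2, and 15 had a mean of at least 10 RPKM. Only 12 of the 39 reached the filter in all 3 WT libraries and 22 in none, so most of them passed through the knockout groups and had to be higher there. A copy was matched to 81 of the 83 coding members, and a member held a median of 36.6% of the reads of its family and under 50% in 57 of 83 families. Members with 90% or more of their family's reads numbered 7, among them Rpl8, Rps3 and Rplp2. Of these, Rpl8 fell by 0.85 and by 0.92 and Rps3 by 0.49 and by 0.57. Summed with their copies, 55 of 82 tested members fell and 0 rose in DKO, and 56 fell and 0 rose in DKO_TG. Of all genes in that fit, 23.6% fell and 32.4% rose in DKO, and 19.7% fell and 30.5% rose in DKO_TG.

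Some snoRNAs encoded inside ribosomal protein genes had reads in the knockout groups and few or none in WT. The annotation places 58 snoRNAs within 30 members, and 25 passed the filter, in 14 hosts. None of these 25 reached the filter in all 3 WT libraries and 14 reached it in 0 of them, so they passed through the knockout groups and are given as a description. Snord72, inside Rpl37, measured 0, 1.10 and 0.256 RPKM in WT, then 8.44, 13.9 and 13.6 in DKO, and lastly 12.4, 18.7 and 15.4 in DKO_TG. Snord35a, inside Rpl13a, measured 0, 0.248 and 0 RPKM in WT, then 5.43, 7.96 and 6.29 in DKO, and lastly 8.43, 9.37 and 9.59 in DKO_TG. Of 4 tested RNAs that stay in the nucleus, 3 rose and 1 fell in both comparisons with WT. Beside them, 30.8% of all genes rose and 25.9% fell in DKO, and 29.1% and 22.3% in DKO_TG. Meg3, under 0.5 RPKM in all WT libraries, passed through the knockout groups. Malat1 rose from 7.38 ± 5.03 RPKM in WT to 199 ± 19.1 in DKO and 261 ± 16.4 in DKO_TG, and Neat1 from 0.577 ± 0.304 to 55.3 ± 12.7 and 58.4 ± 8.94 (SD, 3 libraries per group). Gm26917 fell from 75.3 ± 40.3 RPKM to 17.1 ± 5.87 and 30.7 ± 20.2. The part of RNA extraction or nuclear RNA content in the members' values was not tested. Of the members, 39 share exon bases with another annotated gene, 27 of them on the same strand, and whether counting used the strand is not given in the sources used here.

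Promoters were read from the RefSeq table on GRCm38.p6, which matched 64 of the 89 members with 76 windows of 300 bases and had no entry for Rpl29. A run of at least 5 pyrimidines led by C, within 10 bases of the annotated start, was present in 55.3% of the members' windows and 30.7% of all 32851 windows. CCGGAA, the core of ETS-factor sites, was found on either strand in 47.4% and 14.9%, and GGGCGG, the core of Sp1 sites, in 59.2% and 35.7%. TATAA beginning 20 to 40 bases before the start, on the forward strand, was found in 6.58% and 3.52%. These are matches of letters in a window, and annotated starts can be off by bases, so a missing match says only that the letters are not there. The 34 core genes with the pyrimidine run had a median difference of -0.70 in DKO and -0.61 in DKO_TG, and the 23 without it -0.73 and -0.76. To show the run in genes at both ends of the change, the 4 core genes with the lowest and the 4 with the highest difference in DKO that have an entry are printed from 30 bases before to 20 bases after the annotated start, with the run in capitals. They lie at chr11:114668550-114668599 (plus strand, Rpl38), chr17:33824543-33824592 (minus, Rps28), chr7:4792935-4792984 (plus, Rpl28), chr3:130730379-130730428 (minus, Rpl34), chr7:45128726-45128775 (minus, Rpl13a), chr3:90213629-90213678 (minus, Rps27), chr5:107900498-107900547 (plus, Rpl5) and chr17:27635225-27635274 (minus, Rps10).
Rpl38: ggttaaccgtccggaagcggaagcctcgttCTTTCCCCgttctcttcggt
Rps28: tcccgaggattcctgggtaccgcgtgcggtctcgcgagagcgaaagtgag
Rpl28: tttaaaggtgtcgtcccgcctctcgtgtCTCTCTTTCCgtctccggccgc
Rpl34: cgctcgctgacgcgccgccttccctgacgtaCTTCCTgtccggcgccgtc
Rpl13a: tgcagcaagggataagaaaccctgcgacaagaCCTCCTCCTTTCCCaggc
Rps27: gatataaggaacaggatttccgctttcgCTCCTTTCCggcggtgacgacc
Rpl5: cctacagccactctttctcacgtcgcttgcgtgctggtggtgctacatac
Rps10: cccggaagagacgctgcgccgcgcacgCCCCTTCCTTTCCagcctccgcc
The run was present in 3 of the 4 windows at either end. The ends were set by each gene alone. Summed with their copies, Rpl13a and Rps10 differed by -0.69 and -0.81 in DKO, and Rpl34 by 0.49.

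Genes that serve the ribosome outside the rule were lower in part. Of 24 translation factors and other genes known for the TOP motif, 17 fell and 3 rose in DKO, and 18 fell and 2 rose in DKO_TG. Over all genes tested, 25.9% fell and 30.8% rose in DKO, and 22.3% fell and 29.1% rose in DKO_TG, and the counts of this and the next lists stand beside these shares. Eif3l, a subunit of initiation factor 3, fell from 90.1 ± 11.7 RPKM to 43.7 ± 3.86 and 45.2 ± 1.59. Those that rose were the helicase gene Eif4a2, from 31.4 ± 4.41 RPKM to 105 ± 13.6 and 110 ± 3.36, and the snoRNA host genes Snhg1, in both, and Gas5, in DKO. Gas5 measured 20.6 ± 2.24 RPKM in WT, against 41.0 ± 10.3 in DKO and 18.2 ± 1.04 in DKO_TG, and was the only one of the 24 called between DKO_TG and DKO (-1.12, adjusted p = 0.018 in limma). Of the 7 ribosome genes outside the rule, 3 fell (Rack1, Fau and Rpl36al), 1 rose and 3 were not called in both comparisons with WT.

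Of 38 genes of RNA polymerase I and ribosome assembly, 22 fell and 3 rose in DKO, 17 fell and 2 rose in DKO_TG, and 0 were called between DKO_TG and DKO. Bysl, which is needed to mature the small subunit, fell from 11.9 ± 2.36 RPKM to 4.44 ± 0.973 and 5.86 ± 0.05996, and Rrp12 fell by 1.25 and by 0.94. Taf1d, a subunit of the polymerase I factor SL1 and also a snoRNA host, rose from 1.39 ± 0.0298 RPKM to 6.80 ± 0.639 and 7.27 ± 0.407. Rrn3, the initiation factor of polymerase I, fell by 0.49 in DKO and differed by -0.15 in DKO_TG. Of 9 tested genes listed as chaperones of single ribosomal proteins, a role not checked here for each, 3 fell and 0 rose in each comparison with WT. That share of falls was near that of all genes. Grwd1 fell by 0.94 and by 0.89, Heatr3 by 0.63 and by 0.29, and Aar2 by 0.51 and by 0.56. Mitochondrial ribosomal proteins, which serve the other ribosome of the cell, fell in 57 of 81 genes and rose in 1 (Mrps9) in DKO, with a median of -0.48, and fell in 37 and rose in 2 in DKO_TG, with a median of -0.43. Mrps12 fell from 37.0 ± 7.42 RPKM to 14.5 ± 1.92 and 15.5 ± 3.05 (SD, 3 libraries per group), Mrpl16 fell by 1.06 and by 0.71, and Mrps2 fell by 0.53 and by 0.40. Of the other protein-coding genes at 10 to 100 RPKM, 40.5% fell in DKO and 34.9% in DKO_TG.

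The counts for genes that control or survey the ribosome were near or under the shares of all genes. Of 21 genes of mTORC1, LARP1 and MYC control, 4 rose and 6 fell in DKO, and 5 rose and 4 fell in DKO_TG. The S6 kinase genes Rps6kb1 and Rps6kb2 rose by 0.59 and 1.27 in DKO and by 0.60 and 1.24 in DKO_TG, and Eif4g1, the scaffold of the cap-binding complex, fell by 0.55 and by 0.35. Among 13 genes of ribosome quality control and recycling, 4 rose and 4 fell in DKO, and 4 rose and 3 fell in DKO_TG. Zfp598, the sensor of collided ribosomes, rose from 6.53 ± 0.557 RPKM to 14.4 ± 0.249 and 14.4 ± 0.783, and Nemf, which marks stalled large subunits, rose by 0.81 and 0.94. Gtpbp2, a rescue factor for stalled ribosomes, rose by 2.099 and 1.95. Of 14 p53 targets, 3 rose and 3 fell in DKO, and 3 rose and 2 fell in DKO_TG. Mdm2, the ubiquitin ligase bound by Rpl5 and Rpl11, rose from 6.003 ± 0.134 RPKM to 10.3 ± 0.626 and 11.9 ± 0.191, Trp53inp1 rose by 0.63 and 0.58, and Phlda3 fell from 12.6 ± 1.56 RPKM to 7.19 ± 1.02 and 4.89 ± 0.438. Between DKO_TG and DKO, 0 genes of these 3 lists were called in limma.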

How the data were processed

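Total RNA of 9 ovary libraries was sequenced. The authors deposited 1 table of RPKM values, and per the submitters' processing notes the build was mm10 and the tools included HISAT2 2.1.0, cutadapt, HTSeq 0.5.4p5 and DESeq2 1.2.8. How RPKM was made, with which annotation and strand setting, and what became of reads with several matches is not given in the sources used here. The members and all gene lists were chosen with earlier results of these data known. Identifiers were matched to GENCODE M21 (54809 of 54838). RPKM times exon length gave whole reads for 97.8% of values above 0, and all 37 mt- genes were at 0.

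Because RPKM values are not counts, log2(RPKM + 0.5) was tested with limma 3.58.1 in R 4.3.3 (eBayes with a mean-variance trend, 9 libraries in 1 fit) over the 18889 genes with at least 0.5 RPKM in 3 libraries. Adjusted p are Benjamini-Hochberg values over all of these, called under 0.05. The log2 scale with its pseudocount understates changes of low genes. The fit was tested on simulated data. Pseudogenes were matched to coding transcripts of the members with blastn 2.17.0. Genes are named by rule: the highest and lowest by level, the largest and smallest differences, genes of set roles and their paralogs, and the top genes of each list, of which those that led a list only in DKO_TG against DKO without a call are left out. Copies, snoRNAs and genes named only for a call were chosen after their values were seen. Alternatives were other pseudocounts, filters and scalings, a replicate block, 6-library fits, each library left out, voom on the recovered reads and, added later, a length correction, sums with copies, coding genes only and both first replicates left out. Values of some genes that the naming rule covers are not reported here.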

Additional observations from a re-analysis of the deposited data

How the results depend on the processing

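Under pseudocounts of 0.1 and 1, a filter at 1 RPKM, no filter, median ratio scaling and fits of the 6 libraries compared, the counts of members that fell against WT stayed within 1.5 times those reported and 0 rose. With 1 library left out at a time, 44 to 79 fell in DKO against WT, 40 to 77 in DKO_TG against WT and 0 in DKO_TG against DKO, and 0 to 1 rose in the last (Rps2, without WT replicate 1) and 0 in the others. Of all genes, 20.6% to 27.9% fell in those fits in DKO against WT, and 16.3% to 24.5% in DKO_TG against WT. The replicate numbers did not pair the libraries, since deviations of same-numbered libraries correlated by -0.31 to 0.14. With the replicate number as a block 47 and 45 members fell and 0 rose, where 23.1% and 19.1% of all genes fell and 29.1% and 27.4% rose. With voom on the recovered reads, 39 fell in DKO, and in DKO_TG 44 fell and 1 rose. Of all genes in that fit, 12.1% fell and 43.9% rose in DKO, and 11.5% fell and 39.8% rose in DKO_TG. With the length correction, 65 fell and 1 rose in DKO_TG, where 31.1% of all genes fell and 22.3% rose. With both first replicates left out, 1 member rose (Rps2) and 1 fell (Rps4l) between DKO_TG and DKO, beside 0.791% and 1.89% of all genes.

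After quantile normalization 6 members fell and 6 rose in DKO and 18 fell and 2 rose in DKO_TG, and the median of the members minus that of all genes was 0.014 in DKO. With TPM, 19 fell and 2 rose, and 28 fell and 2 rose. Centred on the members, 11 fell and 5 rose, 5 fell and 8 rose, and 1 rose between DKO_TG and DKO. Signs were followed only for the genes named by rule. Of those called on the deposited or the other scale, the ones whose sign turned in DKO against WT with quantile normalization were Rpl10a (0.16), Rpl3 (0.15), Rpl32l (0.19), Rpl5 (0.41), Rpl7 (0.090), Rplp1 (0.075), Rps14 (0.14), Rps27 (0.44), Rps27a (0.40), Rps3a1 (0.078), Rps3a2 (0.013) and Rps7 (0.38). With TPM they were Rpl10a (0.020), Rpl3 (0.0034), Rpl32l (0.069), Rpl5 (0.32), Rpl7l1 (0.083), Rps10 (0.34) and Rps14 (0.023). Centred on the members they were Rpl10a (0.12), Rpl3 (0.10), Rpl32l (0.17), Rpl5 (0.42), Rpl7 (0.053), Rpl7l1 (0.19), Rps14 (0.12), Rps24 (0.31), Rps27 (0.38), Rps27a (0.34) and Rps7 (0.31). In DKO_TG against WT, by the same rule, quantile normalization turned Rpl5 (0.31), Rplp1 (0.061), Rps14 (0.074), Rps15 (0.013), Rps27a (0.26), Rps3a1 (0.075), Rps3a2 (0.0053) and Rps7 (0.11), and TPM turned Rpl5 (0.22), Rpl7l1 (0.16) and Rps10 (0.21). Centring there turned Rpl13a (0.44), Rpl5 (0.40), Rpl7 (0.025), Rpl7l1 (0.35), Rps10 (0.42), Rps14 (0.15), Rps2 (0.68), Rps24 (0.42), Rps27 (0.41), Rps27l (0.32) and Rps7 (0.14). Signs of genes called on neither scale are not listed. Members not named by rule are not listed either, and some of them turned as well. Centred on the members, Rpl17 was at 0.10 in DKO, and Rpl12 and Rps18 were at 0.21 and 0.077 in DKO_TG. Summed with its copies, Rpl34 turned to 0.49 and 0.50. These settings change the scale on which a difference of 0 lies, and beyond that the cause was not tested. Depth does not limit the core genes, all above 9 RPKM, but limits the snoRNAs and Rpl39l.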
